A study of Mus musculus with 10 samples.

Results

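The genes described here encode the G protein subunits and the enzymes that make, bind, act on or degrade cyclic AMP (cAMP). They were taken by symbol: 44 named genes, all found among the 25006 genes listed in each count table. They comprise 11 G alpha subunits, 4 G beta and 6 G gamma subunits, 8 adenylyl cyclases, 6 subunits of protein kinase A (PKA), 7 phosphodiesterases and the transcription factor genes Creb1 and Crem. The samples are 10 single cells from the solitary tract nucleus (NTS), the brainstem relay of visceral sensory input, from 3-month-old C57BL/6 mice carrying LepRb-Cre and Halo-eYFP, so that cells with leptin receptor Cre activity fluoresce yellow. Each library holds nuclear and cytoplasmic RNA drawn by pipette from 1 neuron in an acute brainstem slice. By firing property, 5 neurons are type 1 (1-1, 1-2, 4-3, 8-2 and 9-1) and 5 are type 2 (6-2, 10-1, 10-3, 9-2 and 9-4). All carry the same reporter alleles, no group lacks them, and the sources used here explain neither the firing types nor the neuron numbers. No animal is named either, so a type was treated as a single sample. Means ± SD (n = 5 neurons) describe spread between cells, and no p-value was computed.

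G protein-coupled receptors act through heterotrimers of an alpha subunit and a beta-gamma pair. The stimulatory subunits Gαs and Gαolf activate adenylyl cyclases, the Gαi group restrains them, and free beta-gamma pairs activate some cyclase isoforms and inhibit others. cAMP releases the catalytic subunits of PKA from their regulatory subunits and is broken down by phosphodiesterases, and PKA phosphorylates the transcription factor CREB, which binds the cAMP response element. In the NTS, receptors for gut peptides such as glucagon-like peptide 1 couple to Gαs.

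Levels are in CPM, gene counts scaled to a common library total. Detection required 10 CPM and no fewer than 3 counts. A gene counted as measured when its mean over the 10 neurons was at least 1 CPM. A difference is the type 2 minus type 1 mean of log2(CPM + 1), and 2 on that scale, 4-fold, was the size used for counting. Library totals ran from 9796799 to 41844825 counts, with 4 libraries (1-1, 1-2, 4-3 and 6-2) below 20000000 and 6 beyond it. A count of 0 allows up to 3 counts, or 0.0717 CPM in 8-2, the deepest, and 0.306 CPM in 4-3, the shallowest. Poisson bounds and this limit cover counting error only, because reads without molecular identifiers are not independent molecules. Of 13 pan-neuronal markers, 12 to 13 were detected in each type 1 neuron and 10 to 13 in each type 2 neuron. Of 14 microglial markers, 13 were detected in 6-2 and in 9-4, 7 in 9-2, 5 in 1-2 and 0 to 2 in the other neurons, with summed levels of 0.0668 to 807 CPM in type 1 and 4.25 to 1846 CPM in type 2. Tyrobp, Csf1r and C1qa, defining microglial genes, were at or below 3.27 CPM in 1-1, 4-3, 8-2, 9-1, 10-1 and 10-3. Of 12 astrocyte markers, 1 to 3 were detected per type 1 neuron and 1 to 5 per type 2 neuron. Their summed level was 149.8 to 673 CPM against 1045 to 1775 CPM, most of it Aldoc. Beyond Aldoc, the largest were Sox9 at 102 CPM and Gfap at 56.1 CPM in 6-2, S100b at 73.9 CPM in 4-3, and Sox9 at 52.0 CPM and Aldh1l1 at 51.0 CPM in 9-4, while Slc1a3 and Gjb6 were at 0 in all 10 neurons and Aqp4 at 0.445 CPM or less. The part of the astrocyte list in the differences below was not tested. Oligodendrocyte markers were detected 0 to 3 at a time, of 12, with a summed level of 1047 CPM in 9-1 and at most 220.2 CPM in the other neurons. Vascular markers were detected 0 to 1 at a time, of 12, with at most 27.6 CPM.

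Detection was uneven across neurons. The 15 members detected in all 10 neurons were Gnas, Gnai1, Gnai2, Gnao1, Gnaz, Gnb1, Gnb2, Gng2, Gng3, Gng10, both PKA catalytic subunits, Prkar1a, Prkar1b and Prkar2b. No cyclase, phosphodiesterase or CREB gene was among them. A further 27 members were detected in 1 to 9 neurons. Gng7, a gamma subunit paired with Gαolf in striatum, and Pde1c were detected in none, with at most 0.138 CPM and 0.817 CPM in any neuron. Each neuron had 23 to 34 of the 44 members detected. Of the 24 members with a mean of 20 to 200 CPM, 18 were under 1 CPM in some neuron, as were 80.7% of all 6529 genes in that range.

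**Figure D1:**
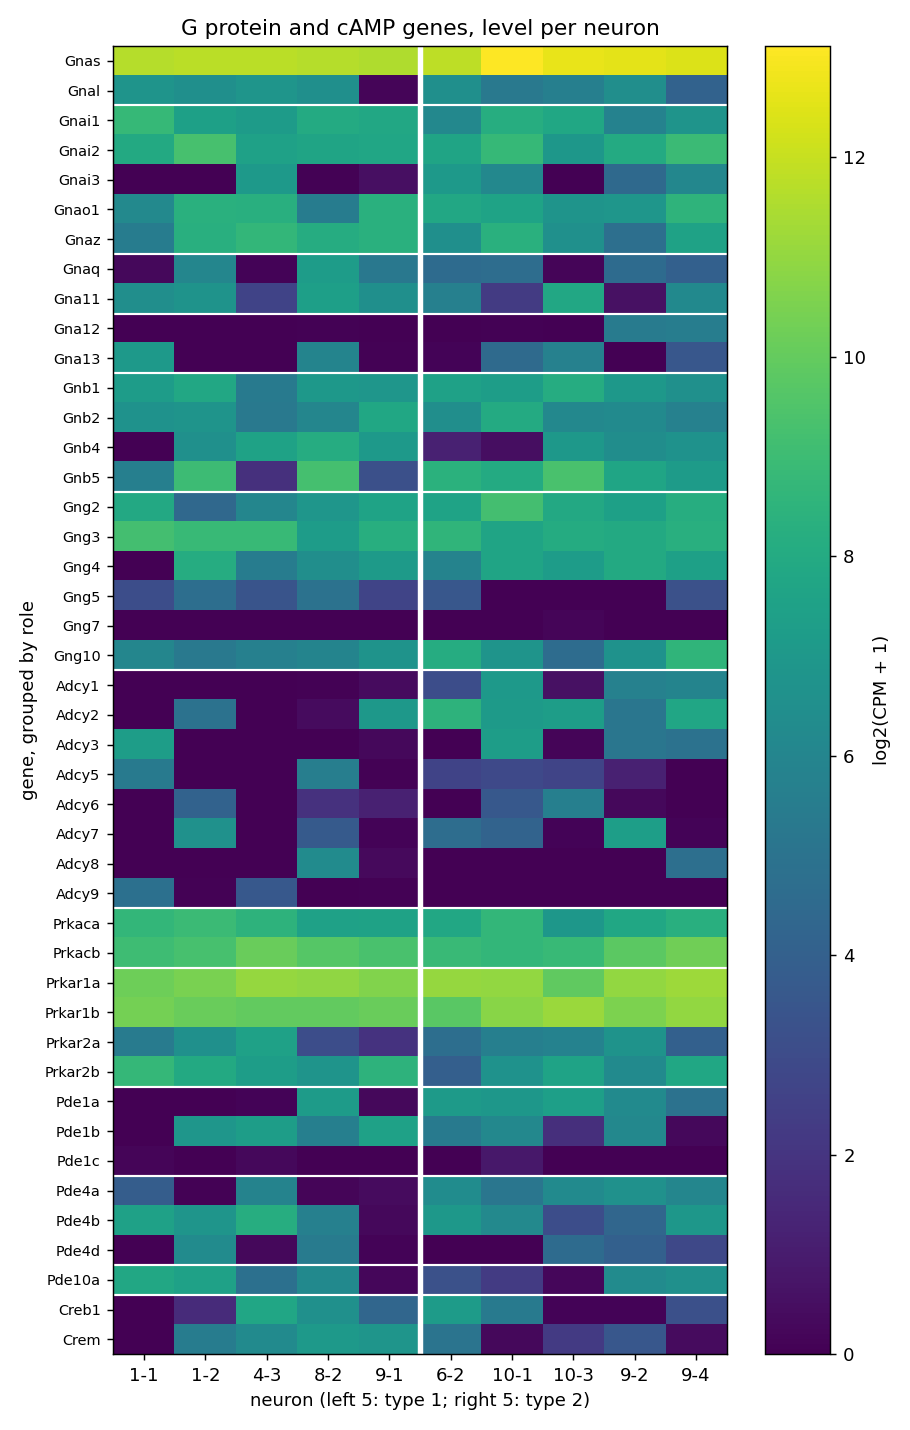
Level of each of the 44 genes (rows, grouped by role, thin lines between groups) in each neuron (columns, type 1 left of the thick line and type 2 right of it), in log2(CPM + 1). The rows of Gnas, Gng3, Prkaca, Prkacb, Prkar1a and Prkar1b are bright in all neurons, whereas the cyclase and phosphodiesterase rows mix dark and bright cells.

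Of the 42 measured members, 8 were higher by 2 or more in type 2 (19.0% of them, where 13.5% of all 11923 measured genes were) and 2 were higher by as much in type 1 (4.76%, where 7.78% of all were). The 8 were the cyclases Adcy1, Adcy2 and Adcy3, the phosphodiesterases Pde1a and Pde4a, the alpha subunits Gnai3 and Gna12 and the beta subunit Gnb5. The 2 were Crem and Gng5. The mean was higher in type 2 for 23 of 42 members (54.8%, against 56.2% of all genes), and the median difference was 0.10 over the members and 0.24 over all genes. The share of members with a higher type 2 mean was thus close to that of all genes, and the members past 2 came from the alpha, beta and gamma subunits, the cyclases, the phosphodiesterases and the CREB group. Every type 2 neuron exceeded every type 1 neuron for 2 members, Gnas and Adcy1 (4.76%, against 1.44% of all genes), and the reverse held for 0 members (0.587% of all genes).

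**Figure D2:**
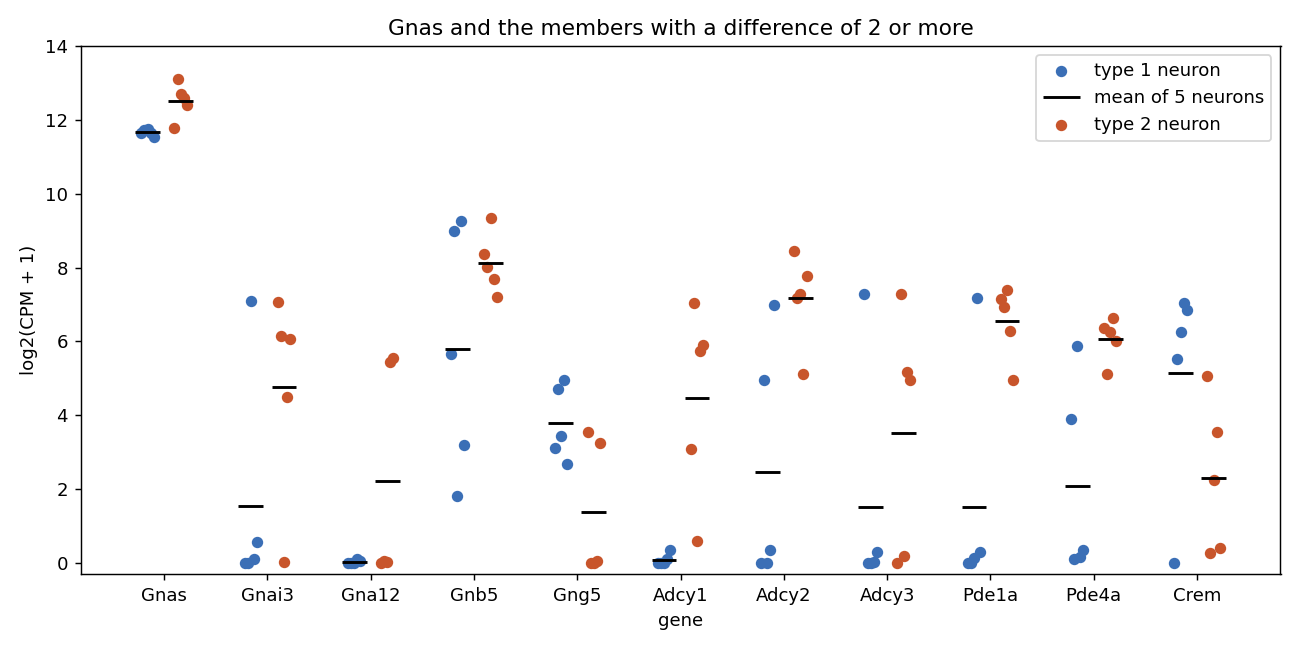
Level of Gnas and of the 10 members with a difference of 2 or more, in log2(CPM + 1), with 1 point per neuron (blue type 1, orange type 2) and a bar at the mean of 5 neurons. For Gnas and Adcy1 all type 2 points lie above all type 1 points, and for the others points of the types overlap, several genes being near 0 in some neurons and above 5 in others.

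Upstream sequence is shown for 6 members because they carry the main patterns: Gnas and Adcy1, whose ranges did not overlap, Adcy2, Pde1a and Pde4a, the other members with differences of 4 or more, and Prkar1a, the most evenly expressed measured member. The stretches come from RefSeq promoter windows on GRCm38.p6, cut so as to hold no annotated exon bases, or to 30 bases around the motif where exon bases intervene. The motif searched was the core of the cAMP response element, TGACG or its reverse complement CGTCA, in the 250 bases before a start, and the full palindrome TGACGTCA, which holds both cores overlapping. RefSeq windows were found for 37 of the 44 members (71 windows), and Gnal, Gnai2, Gnaz, Gnb4, Adcy6, Adcy8 and Crem had none. The sequences run 5′ to 3′ on the gene's strand, and capitals mark the core or the palindrome. The Gnas stretches are chr2:174327698-174327727 and chr2:174329777-174329806 (plus strand), Adcy1 chr11:7063183-7063432 (plus), Adcy2 chr13:68999542-68999791 (minus), Pde1a chr2:80039030-80039152 (minus), Pde4a chr9:21183851-21184100 (plus) and Prkar1a chr11:109650889-109650918 (plus).
Gnas, middle starts: gaagaggttggggCGTCAtcaggctggtta
Gnas, last start: tcgtgtgaggggtCGTCAccaccgcggggc
Adcy1: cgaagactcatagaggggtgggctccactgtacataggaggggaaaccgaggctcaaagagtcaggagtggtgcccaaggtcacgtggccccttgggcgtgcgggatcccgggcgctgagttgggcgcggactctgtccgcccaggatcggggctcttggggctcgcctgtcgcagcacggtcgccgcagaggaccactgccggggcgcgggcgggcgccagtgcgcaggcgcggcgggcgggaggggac
Adcy2: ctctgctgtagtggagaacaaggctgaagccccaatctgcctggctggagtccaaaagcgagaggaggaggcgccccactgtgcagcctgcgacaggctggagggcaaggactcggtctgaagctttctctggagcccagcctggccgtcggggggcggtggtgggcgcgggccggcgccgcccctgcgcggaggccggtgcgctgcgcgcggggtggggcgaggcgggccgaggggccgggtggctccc
Pde1a: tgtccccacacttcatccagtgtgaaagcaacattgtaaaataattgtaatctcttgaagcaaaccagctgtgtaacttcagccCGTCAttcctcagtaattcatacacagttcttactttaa
Pde4a: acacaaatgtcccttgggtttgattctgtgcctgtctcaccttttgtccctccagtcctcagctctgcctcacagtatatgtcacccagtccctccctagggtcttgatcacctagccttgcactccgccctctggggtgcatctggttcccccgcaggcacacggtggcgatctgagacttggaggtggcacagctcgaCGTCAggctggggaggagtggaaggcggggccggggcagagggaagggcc
Prkar1a: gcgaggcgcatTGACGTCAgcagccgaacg
Gnas has 4 windows, of which the first in the gene holds no core. The core shown for the middle starts lies 38 and 57 bases before them, and the other 216 bases before the last start. Only 1 of 3 Pde4a windows and 1 of 4 Pde1a windows held a core, 50 and 166 bases before its start, and these are the ones shown; the first start of either gene had none. The single windows of Adcy1 and Adcy2, with 71.2% and 73.2% G and C, held none. The core was present in 17 of the 71 member windows, against 17.8% of 32851 windows of the same length. Those 17 windows belong to 13 of 37 members, a count per gene for which no share over all genes is given. A gene can have several windows, and these can overlap, as those of the middle Gnas starts do. The palindrome was found in 1 member window, 1 of 6 for Prkar1a, against 1.55% of all windows. These are matches of letters only.

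Gnas, which encodes Gαs (ENSMUSG00000027523, GRCm38 chromosome 2, 174284320 to 174346744, plus strand), was high in every neuron. Its levels were 3184, 3410.2, 3454, 3226 and 2961 CPM in the type 1 neurons 1-1, 1-2, 4-3, 8-2 and 9-1. In the type 2 neurons 6-2, 10-1, 10-3, 9-2 and 9-4 they were 3537, 8892, 6657, 6149.6 and 5454 CPM. The type 1 values were close together (3247 ± 197 CPM), the type 2 values higher and wider (6138 ± 1942 CPM), and 6-2 lay just above the highest type 1 neuron. The difference was 0.86, with counts pooled over the 5 neurons of a type giving 3189 CPM (95% Poisson bounds, exact, of 3178 and 3199.5) against 6674 CPM (6661 and 6688). It was 1.11 among the libraries above 20000000 counts, and 0.08 among those below, where 6-2 is the only type 2 neuron. Among the 3 neurons whose name begins with 9 it was 0.97. Gnas shares 988 exon bases with Nespas on the opposite strand, which had 386 counts beside 1357739 for Gnas. The Gnas locus is imprinted and uses several first exons, which counts per gene do not separate.

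Gnal, the gene of Gαolf, the stimulatory subunit of olfactory and striatal neurons, was detected in 4 type 1 and 5 type 2 neurons, at 0.127 to 114 CPM and 16.2 to 90.8 CPM (difference 0.24). Per kilobase of exon, the scale on which levels of different genes are compared here, Gnas made up 97.6% ± 1.36 of the pair in type 1 and 98.9% ± 0.911 in type 2. In other families, which member leads a neuron can change when the length of the longest transcript is used instead. Gnal shares 852 exon bases with Mppe1 on the opposite strand, which reached 62.3 CPM, so its values are uncertain.

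The inhibitory group was expressed in every neuron, and 4 of its 5 genes were detected throughout. Gnai2, its leading gene per kilobase in the mean over the 10 neurons, had 248, 638, 183, 201 and 214 CPM in type 1 and 201, 445, 120.4, 258 and 496 CPM in type 2. The types overlapped fully, with 1-2 highest (difference 0.03). Gnai1 was at 147 to 442 CPM in type 1 and 56.1 to 284 CPM in type 2 (difference -0.91). Gnaz, whose product resists pertussis toxin, had 44.1 to 409.7 and 26.9 to 317 CPM (-1.03), and Gnao1, the abundant brain Gαo, 45.0 to 321 and 109.9 to 368 CPM (0.21). Gnai3 (ENSMUSG00000000001, chromosome 3, 108107280 to 108146146, minus strand) behaved differently, being on or off per neuron. It had 0, 0, 136, 0.0717 and 0.478 CPM in type 1 and 133, 69.5, 0.0276, 21.5 and 66.0 CPM in type 2. It passed detection in 1 of the type 1 neurons and 4 of the type 2 neurons, and the ranges overlapped. The difference was 3.21, but 1.54 without 6-2, 9-2 and 9-4, the type 2 neurons with most microglial markers, and 1.49 with a pseudocount of 10, both under 2; the part of microglial RNA was not tested.

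As shares of the group per kilobase, Gnai1, Gnai2 and Gnaz took similar parts in type 1 (32.7% ± 19.0, 28.8% ± 12.7 and 28.6% ± 14.1), while in type 2 Gnai2 took 40.1% ± 15.1, Gnai1 24.3% ± 16.3 and Gnaz 17.3% ± 7.04. Gnai2 led in 1 type 1 neuron and 4 type 2 neurons, Gnai1 in 2 and 1, and Gnaz in 2 and 0. The neurons led by Gnai2 were 1-2, 6-2, 9-2 and 9-4, each with 5 or more microglial markers detected, and 10-1, with 0. Gnai2 took 50.1%, 32.7%, 61.6%, 48.5% and 35.2% there, in that order, and the part of microglial RNA was not tested. The share ranges of the types overlapped for every gene. With the length of the longest transcript, Gnai2 took 37.7% in type 1 and 48.6% in type 2. Gnai1 then took 26.0% and 18.4%, and Gnaz 23.1% and 13.1%. Which gene leads in a type 1 neuron thus depends on the length used. The summed level of the group was 262 ± 48.6 per kilobase of exon in type 1 and 204 ± 94.7 in type 2. On that scale it lay near the Gαs pair in type 1 (298 ± 21.1) and below it in type 2 (554 ± 172). With the length of the longest transcript, the mean of Gnas over the 10 neurons rose from 419.5 to 1189 per kilobase. That of Gnai2 rose from 79.5 to 135.6 and that of Gnai1 stayed at 63.8, so how near the group lies to Gαs depends on the length used.

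The Gαq group, which drives phospholipase C, was lower. Gna11 led it, with 89.5, 107, 5.31, 171 and 92.7 CPM in type 1 and 50.9, 3.92, 234, 0.491 and 74.5 CPM in type 2. Low values occurred in both types, in 4-3, 10-1 and 9-2 (difference -1.44). Gnaq was at 0.102 to 152 CPM in type 1, detected in 3 neurons, and at 0.138 to 24.3 CPM in type 2, detected in 4 (difference -0.18). Gnaq exceeded Gna11 per kilobase only in 10-1 and 9-2, where Gna11 was at its type 2 lowest.

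Gna12 and Gna13 form the last of the alpha classes. Gna13 led per kilobase in the mean over the 10 neurons, although Gna12 had the higher mean in type 2 (5.19 against 2.72). Gna13 had 133, 0, 0, 58.9 and 0.0637 CPM in type 1 and 0.0820, 22.0, 54.3, 0.0351 and 10.97 CPM in type 2, scattered over both (difference 0.20). Gna12 (ENSMUSG00000000149, chromosome 5, 140758408 to 140830431, minus strand) had 0, 0, 0, 0.0717 and 0.0319 CPM in type 1 and 0, 0.0481, 0.0276, 42.3 and 46.4 CPM in type 2. Its difference of 2.19 rested on 9-2 and 9-4, which both carried microglial transcripts, and without 6-2, 9-2 and 9-4 it was 0.02; the part of those transcripts in the result was not tested. Gna12 also shares 456 exon bases with Amz1 on the opposite strand, with a like number of counts (2670 and 2695). Amz1 was at 54.4 CPM in 9-2 and at 0 in 9-4.

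Among the beta subunits, Gnb5, the divergent beta that pairs with RGS proteins of the R7 family, led per kilobase. Its levels (ENSMUSG00000032192, chromosome 9, 75306288 to 75345876, plus strand) were 49.5, 509, 2.55, 616 and 8.16 CPM in type 1 and 331, 257, 653, 206 and 145 CPM in type 2. Type 1 was split, with 1-2 and 8-2 as high as type 2 neurons and 4-3 and 9-1 near or below 10 CPM. The difference was 2.34, but mean CPM was only 237 ± 300 against 318 ± 199. Gnb5 took 32.3% ± 34.1 of the beta level in type 1 and 55.0% ± 10.3 in type 2, where it led in all 5 neurons (2 in type 1). Gnb1 was at 40.0 to 231 and 96.5 to 274 CPM (difference 0.44), and Gnb2 at 37.9 to 222 and 53.7 to 261 CPM (0.01). Gnb4 was detected in 4 type 1 and 3 type 2 neurons, at 0 to 273 and 0.385 to 125 CPM (-1.50).

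Gng3, a neuronal gamma subunit, led the gammas per kilobase, with 595, 456, 459.7, 152 and 299.9 CPM in type 1 and 389, 200.03, 272, 253 and 313 CPM in type 2. Both types had it in every neuron and overlapped (difference -0.35). It shares 398 exon bases with Bscl2 on the opposite strand, which had 49923 counts beside 75516 for Gng3. Its share was 64.8% ± 15.2 in type 1 and 42.1% ± 11.5 in type 2. Gng10 took 14.8% ± 7.24 and 28.01% ± 16.9. Gng10 had 38.3 to 105 CPM in type 1 and 24.1 to 387 CPM in type 2 (difference 1.04), with its 2 highest values, 282 and 387 CPM, in 6-2 and 9-4, the neurons with 13 microglial markers detected. Without 6-2, 9-2 and 9-4 the difference was -0.22; the part of microglial RNA was not tested.

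Gng2 was at 20.3 to 241 CPM in type 1 and 172 to 586 CPM in type 2 (difference 1.50), and Gng4 at 0 to 273 and 58.1 to 249 CPM (1.80). The small gamma gene Gng5 (ENSMUSG00000068523, chromosome 3, 146499807 to 146505572, plus strand) was low, with 7.61, 25.5, 9.80, 30.1 and 5.45 CPM in type 1 and 10.7, 0, 0, 0.0351 and 8.59 CPM in type 2. All type 1 neurons had some, and 10-1, 10-3 and 9-2 had almost none (difference -2.41), although it passed detection in only 2 and 1 neurons. Gng5, Gng2, Gnb1 and Prkaca have annotated processed pseudogenes that can share reads, which leaves their levels uncertain.

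**Figure D3:**
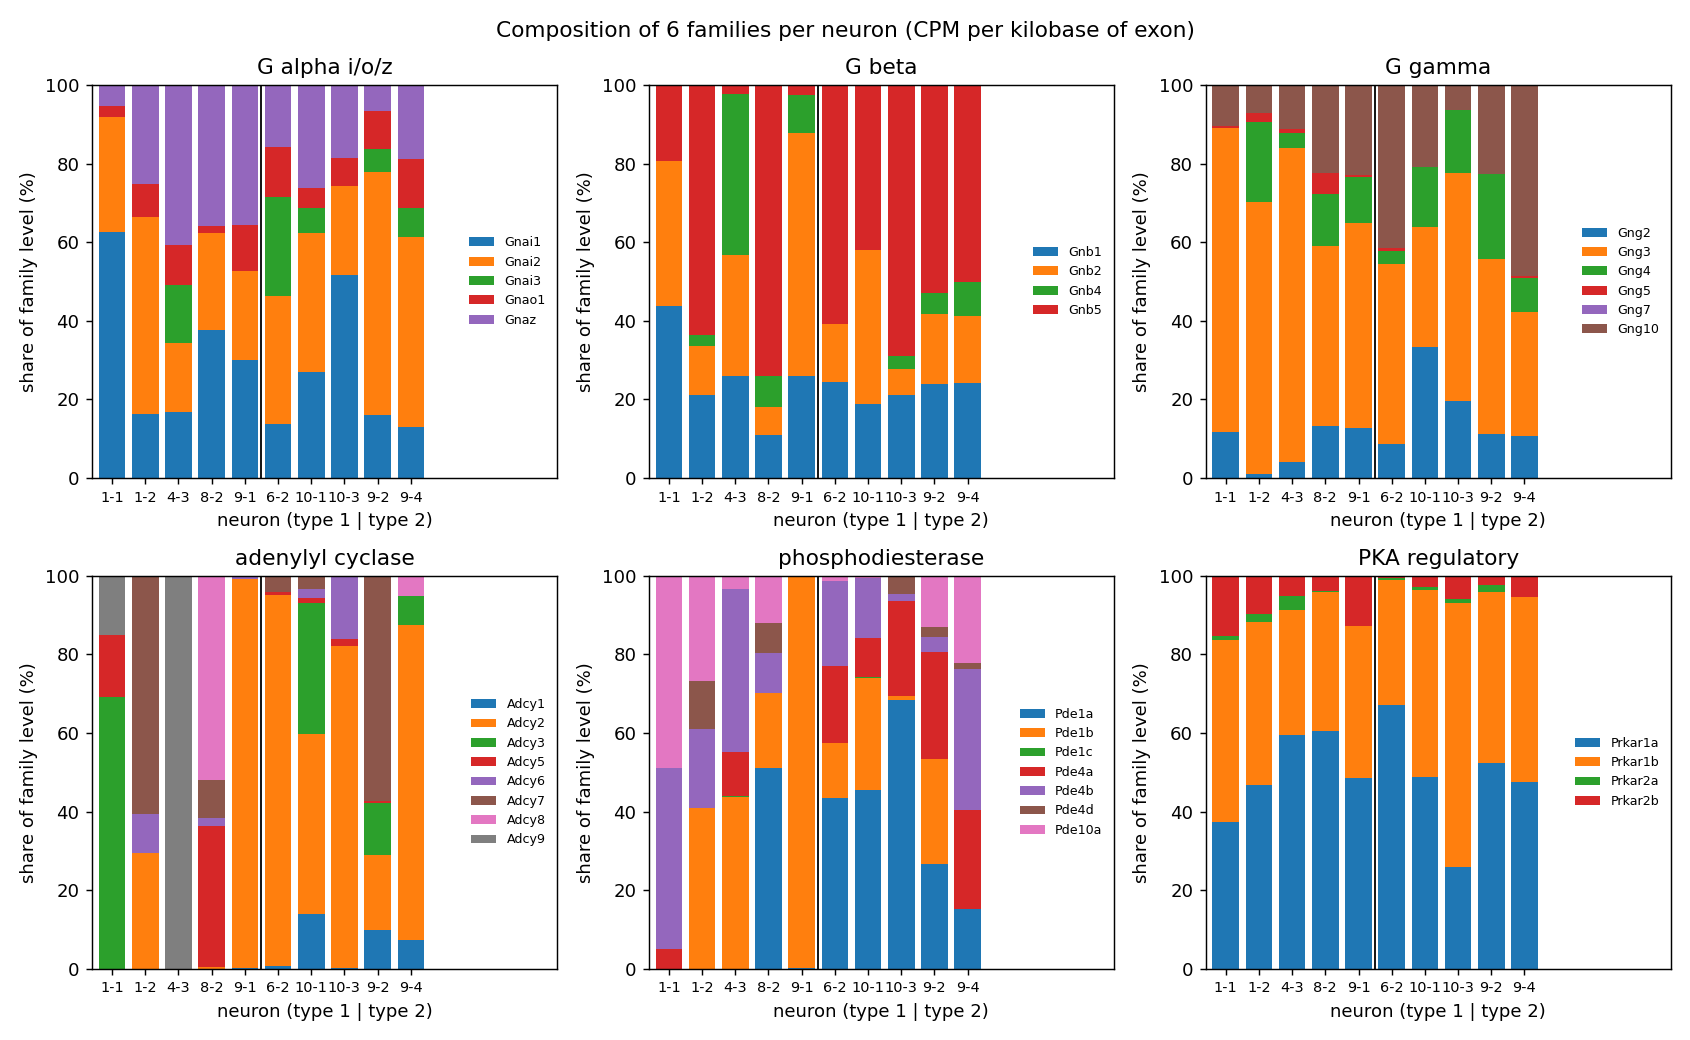
Share (%) of each family's level, in CPM per kilobase of exon, that each member takes in each neuron, for 6 families. Left of the black line are type 1 neurons and right of it type 2. Gnb5 (red) is the top share in all 5 type 2 neurons of the G beta panel, and in the cyclase panel each type 1 neuron has a different leading gene while Adcy2 (orange) leads 4 of 5 type 2 neurons.

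Of the 8 adenylyl cyclases, 3 were higher by 2 or more in type 2 and 0 in type 1, where 13.5% and 7.78% of all measured genes were. Adcy2, a cyclase that G beta-gamma stimulates together with Gαs (ENSMUSG00000021536, chromosome 13, 68620043 to 68999541, minus strand), had 0, 30.3, 0, 0.287 and 125 CPM in type 1 and 352, 143, 156, 33.9 and 219 CPM in type 2. Detection was in 2 type 1 neurons and in all 5 type 2 neurons, and 9-1 overlapped the type 2 range. The difference was 4.71, and pooled counts gave 38.9 CPM (95% Poisson bounds, exact, of 37.7 and 40.04) against 158 CPM (156 and 160.4). Among neurons whose name begins with 9 the difference was -0.52, since 9-1 lay between 9-2 and 9-4. Neuron 9-1 is the one with the high oligodendrocyte marker level, and the part of oligodendrocyte RNA in its Adcy2 level was not tested.

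Adcy1, a cyclase stimulated by calcium and calmodulin (ENSMUSG00000020431, chromosome 11, 7063489 to 7178506, plus strand), had 0, 0, 0, 0.0717 and 0.287 CPM in type 1 and 7.54, 131, 0.525, 52.7 and 59.2 CPM in type 2. Detection was in 0 of 5 type 1 neurons and 3 of 5 type 2 neurons. The ranges did not overlap, but the gap between 9-1 and 10-3 was less than 1 CPM. The difference was 4.39, and pooled counts gave 0.107 CPM (0.0554 and 0.187) against 59.6 CPM (58.3 and 60.8). It stayed at 2.02 or more under each other setting tried, including the depth sets.

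Adcy3, known from olfactory neurons and primary cilia (ENSMUSG00000020654, chromosome 12, 4133103 to 4213525, plus strand), had 155, 0, 0, 0.0239 and 0.223 CPM in type 1 and 0, 156, 0.138, 34.9 and 30.3 CPM in type 2. Its difference of 2.00 lay at the counting threshold. It passed 2 in only 3 of the 10 cases in which a neuron was left out, and was -2.43 among the libraries below 20000000 counts, which include 1-1 and 6-2. Adcy7, stimulated by beta-gamma and common in immune cells, was detected in 2 type 1 and 3 type 2 neurons (0 to 99.7 and 0.0954 to 163 CPM, difference 1.204). Its highest values were in 9-2 and 1-2, which had 7 and 5 microglial markers detected, while 9-4, with 13 markers, had 0.0954 CPM; the part of microglial RNA was not tested.

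The calcium-inhibited cyclases Adcy5 and Adcy6 were low. Adcy5 was detected in 2 type 1 neurons, 1-1 and 8-2, at 40.3 and 48.2 CPM, and reached 6.39 CPM in type 2 (difference -0.34). Adcy6 was detected in 1 and 2 neurons and reached 16.2 and 49.6 CPM (0.48). Adcy8 was seen in 8-2 (79.4 CPM) and 9-4 (27.2 CPM) and was at 0.255 CPM or less elsewhere (-0.35). Adcy9 was seen in 1-1 and 4-3 (28.04 and 11.3 CPM) and reached 0.0351 CPM in type 2 (-1.72).

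The leading cyclase per kilobase was a different gene in each type 1 neuron: Adcy3 in 1-1, Adcy7 in 1-2, Adcy9 in 4-3, Adcy8 in 8-2 and Adcy2 in 9-1. In type 2 it was Adcy2 in 6-2, 10-1, 10-3 and 9-4 and Adcy7 in 9-2. Adcy2 made up 25.8% ± 42.8 and 64.2% ± 31.0 of the cyclase level. Summed over the 8 genes, the level was 35.8, 24.4, 2.18, 18.7 and 29.9 CPM per kilobase in type 1 (22.2 ± 12.9) and 88.5, 74.7, 45.1, 42.3 and 65.0 in type 2 (63.1 ± 19.6). Every type 2 neuron lay above every type 1 neuron on that scale, a sum examined after its values were seen (log2 difference 1.79, or 1.78 to 1.98 with the other library scalings and with thinned counts). Subsets and left-out neurons cannot make such ranges overlap, and gave log2 differences of 0.79 to 2.64. On plain CPM the ranges met (11.3 to 223 and 211 to 466), and without Adcy2 they overlapped (0.313 to 35.8 and 5.05 to 40.6 per kilobase). The beta-gamma-stimulated pair Adcy2 and Adcy7 ran from 0 to 29.6 (9-1) in type 1 and from 32.2 (9-2) to 87.2 in type 2. Adcy2 alone overlapped, and in 9-2 Adcy7 took 57.2% of the cyclase level and Adcy2 19.1%. Neuron 9-2 had 7 microglial markers detected, and the part of microglial RNA was not tested. No share over all genes is given for such sums. The calcium-stimulated Adcy1, Adcy3 and Adcy8 together overlapped, at 6.92 ± 10.8 and 11.8 ± 14.4.

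**Figure D4:**
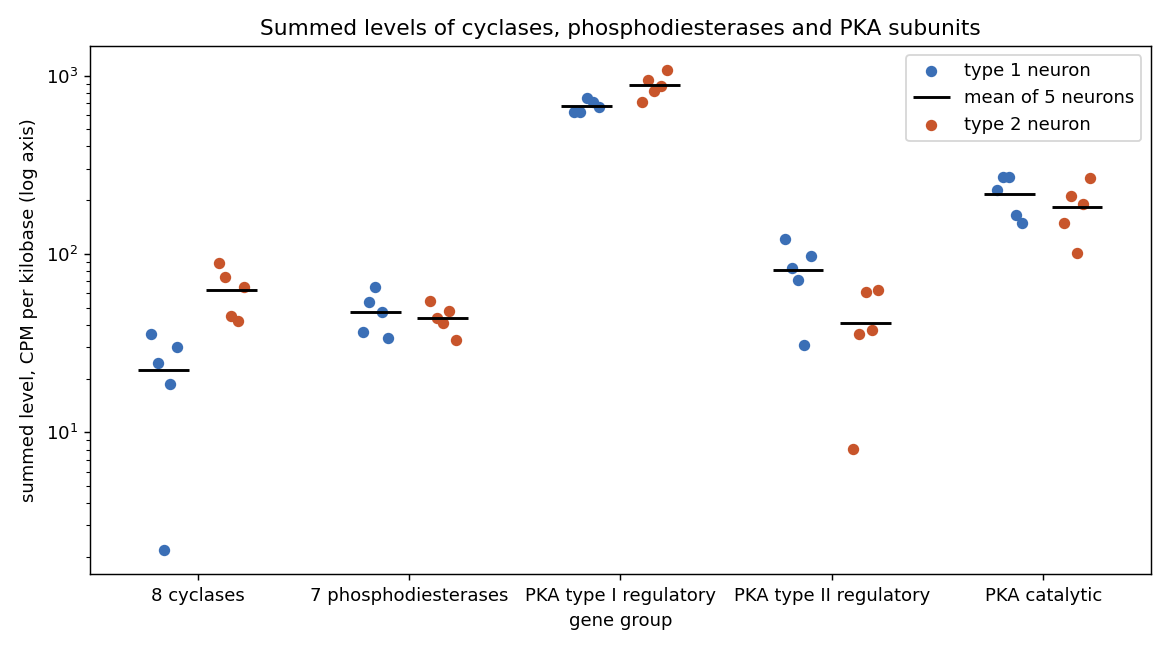
Summed level of 5 groups of members in each neuron, in CPM per kilobase of exon on a log axis, with 1 point per neuron (blue type 1, orange type 2) and a bar at the mean of 5. The 8 cyclases lie at 2.18 to 35.8 in type 1 and 42.3 to 88.5 in type 2, without overlap, and the other 4 groups overlap.

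PKA genes had counts in every neuron, and 0 of the 6 had a difference of 2 or more in either direction. Of all measured genes, 13.5% were higher by as much in type 2 and 7.78% in type 1. Prkar1a, the regulatory RIα subunit that restrains the kinase when cAMP is low, had 1202, 1435, 2096, 1946 and 1598 CPM in type 1 and 2090.0, 2072, 981, 2044 and 2329 CPM in type 2. The types overlapped and 10-3 alone was low in type 2 (difference 0.17). Prkar1b, the neuronal RIβ, was at 993 to 1320.4 CPM in type 1 and 871 to 2249 CPM in type 2 (0.54). Only 6-2 among type 2 neurons was below the type 1 maximum. Prkar2b, the neuronal RIIβ, was at 109 to 420.3 and 14.9 to 221 CPM (-1.39), lowest in 6-2, and Prkar2a at 2.84 to 180.5 and 15.3 to 105 CPM (0.48).

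Per kilobase, the type I regulatory pair amounted to 675 ± 53.1 in type 1 and 884 ± 136 in type 2, and the type II pair to 80.9 ± 33.7 and 41.0 ± 22.5. The ratio of type I to type II was 10.6 ± 7.22 in type 1 and 33.8 ± 30.9 in type 2, where 6-2 alone gave 88.3. Of the catalytic subunits, Prkaca, the leading one per kilobase, had 412, 486, 355, 178 and 184 CPM in type 1 and 233, 404, 120.8, 221 and 306 CPM in type 2, with full overlap (difference -0.32). Prkacb was at 536 to 1127 and 417 to 1243 CPM (-0.20). Prkaca took 58.4% ± 13.7 and 56.4% ± 13.7 of the catalytic level, or 44.2% and 42.2% with the length of the longest transcript, so which of the pair leads depends on the length used. Regulatory over catalytic level was 3.72 ± 1.06 in type 1 and 5.46 ± 1.82 in type 2.

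Of the 7 phosphodiesterases, 2 were higher by 2 or more in type 2 and 0 in type 1, where 13.5% and 7.78% of all measured genes were. The ranges overlapped for all 7, and few of all genes had ranges apart (1.44% with type 2 above, 0.587% with type 1 above). Their summed level was 47.3 ± 12.98 CPM per kilobase in type 1 and 43.9 ± 7.91 in type 2. Pde1a, a phosphodiesterase activated by calcium and calmodulin (ENSMUSG00000059173, chromosome 2, 79834453 to 80129458, minus strand), had 0, 0, 0.102, 145 and 0.223 CPM in type 1 and 141, 120.1, 169, 76.5 and 29.96 CPM in type 2. It was detected in 1 of 5 and 5 of 5 neurons, and 8-2 alone overlapped type 2. Its difference of 5.02 was the largest of the 42 measured members on this scale, but not in several other settings. These included a pseudocount of 10 (2.58, Adcy2 2.80), medians (6.78, Adcy2 6.93) and libraries above 20000000 counts (2.65, Pde4a 5.75). They also included the neurons whose name begins with 9 (5.32, Pde10a 6.24) and leaving out 1-2 (4.64, Adcy2 5.33). Pde1a remained above 2 in each of these, and pooled counts gave 54.3 CPM (exact Poisson 95% bounds 52.9 and 55.7) against 106 CPM (104.7 and 108). Its paralogue Pde1b led the PDE1 genes per kilobase in the mean over the 10 neurons, although Pde1a was higher in type 2 (17.9 against 6.66). Pde1b had 0, 118, 155, 48.8 and 181 CPM in type 1 and 41.1, 67.7, 2.38, 68.4 and 0.223 CPM in type 2. Type 1 neurons other than 1-1 had it, and 10-3 and 9-4 in type 2 had little (difference -1.53).

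PDE4 enzymes are specific for cAMP. Pde4a (ENSMUSG00000032177, chromosome 9, 21165714 to 21213248, plus strand) had 13.8, 0.0722, 57.3, 0.119 and 0.287 CPM in type 1 and 81.1, 33.9, 75.6, 98.6 and 63.4 CPM in type 2. It was detected in 2 of 5 and 5 of 5 neurons, and 4-3 lay within the type 2 range (difference 4.00). Pde4b led the PDE4 genes per kilobase in the mean over the 10 neurons, although Pde4a was higher in type 2 (9.21 against 6.56). Pde4b had 178, 113, 287, 50.7 and 0.223 CPM in type 1 and 125, 70.2, 7.70, 19.3 and 124 CPM in type 2, again overlapping (-0.18). Pde4d was detected in 2 and 2 neurons, at 0 to 79.0 and 0 to 23.2 CPM (-0.15). Pde10a, which degrades cAMP and cGMP and is best known from striatal neurons, had 230.0, 184, 27.9, 73.8 and 0.159 CPM in type 1 and 8.61, 3.85, 0.193, 79.6 and 93.8 CPM in type 2. Its difference of -1.59 was 0.64 among the libraries above 20000000 counts and -3.48 among those below.

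Of the summed phosphodiesterase level, Pde1a took 10.2% ± 22.8 in type 1 and 39.8% ± 20.2 in type 2. Pde4a took 3.30% ± 4.998 and 21.2% ± 6.80, Pde1b 40.7% ± 37.4 and 14.1% ± 13.5, and Pde10a 18.2% ± 20.05 and 7.44% ± 9.86. The leading gene per kilobase of exon was Pde10a in 1-1, Pde1b in 1-2, 4-3 and 9-1 and Pde1a in 8-2. In type 2 it was Pde1a in 6-2, 10-1 and 10-3, Pde4a in 9-2 and Pde4b in 9-4. With the length of the longest transcript, the mean of Pde4b over all neurons rose from 9.24 to 22.7 per kilobase. That of Pde1b rose from 12.7 to 16.2, so which phosphodiesterase leads in some type 1 neurons depends on the length used. As in the cyclases, the spread of shares within type 1 was wide.

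Crem, which encodes activators and the inducible repressor ICER of cAMP-responsive transcription (ENSMUSG00000063889), had 0, 45.1, 76.1, 132 and 114 CPM in type 1 and 32.6, 0.216, 3.76, 10.7 and 0.318 CPM in type 2. It was high in all type 1 neurons except 1-1 and above 11 CPM in type 2 only in 6-2. The difference was -2.83, and pooled counts gave 93.4 CPM (exact Poisson 95% bounds 91.7 and 95.2) for type 1 against 5.72 CPM (5.34 and 6.12) for type 2. It was -5.33 among the libraries above 20000000 counts and 1.14 among those below, where 1-1 and 6-2 both are. Counts per gene do not separate ICER from the activator isoforms. Creb1, the gene of CREB, was at 0 to 218 CPM in type 1, detected in 3 neurons, and at 0.0828 to 146 CPM in type 2, detected in 2 (-0.86).

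Regulators of G proteins were examined from lists of other genes of the pathway, whose counts and medians stand beside 13.5% of all measured genes higher by 2 or more in type 2, 7.78% in type 1 and a median of 0.24. Of 12 measured RGS genes, which speed up the inactivation of alpha subunits, 5 were higher by 2 or more in type 2 and 1 in type 1 (median 1.28, against 0.24 over all genes). That 1 was Rgs4, a regulator of Gαi and Gαq, at 354 to 1917 CPM in type 1 and 0.492 to 593 CPM in type 2 (difference -4.34). Rgs7bp, the membrane anchor of complexes of Gβ5 with R7 RGS proteins, was at 68.5 ± 123 and 93.7 ± 54.5 CPM (2.70), and Rgs20 at 5.41 ± 12.1 and 38.8 ± 40.2 CPM (2.59). Of 5 measured chaperones and modulators, 1 was past the threshold in each direction (median 0.33). Ric8b, a chaperone of Gαs and Gαolf, was detected in 2 type 1 and 5 type 2 neurons (38.7 ± 68.0 and 99.8 ± 48.8 CPM, 3.57), and the receptor Gpr158, which binds R7 RGS proteins, in 3 and 1 (-2.59). Ric8a, the chaperone of the other alpha classes, had a difference of 1.18. None of 6 measured receptor kinases and arrestins passed it (median -0.07), the nearest being Grk6 (191 ± 117 and 57.4 ± 33.5 CPM, -1.97), followed by Arrb2 (-0.67) and Arrb1 (0.30).

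Of 4 other measured beta and gamma-related genes, 3 were higher by 2 or more in type 2 and 0 in type 1 (median 2.30), against 13.5% and 7.78% of all genes. Among them were Gnb1l (3.11) and Gngt2 (2.02). Gngt2 was at 33.5, 11.7 and 49.7 CPM in 6-2, 9-2 and 9-4 and at 17.4 CPM in 1-2, the same 4 neurons in which 5 or more microglial markers were detected, and at 0.0956 CPM or less in the other 6; the part of microglial RNA was not tested. None of the 5 other alpha genes and neither of the remaining cyclase genes listed was measured.

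Around PKA, the 4 genes of kinase inhibitors and of the related kinase PrKX were measured, with 2 higher by 2 or more in type 2 and 1 in type 1 (median 1.75), beside the same 13.5% and 7.78%. Pkib, which encodes a PKA inhibitor, ranged from 0 to 23.1 CPM in type 1 and from 26.7 to 91.0 CPM in type 2 (difference 3.73). These ranges did not overlap, as held with type 2 above for 1.44% of all genes, and Pkib was the only such gene in the pathway lists. Pkig was at 66.5 ± 78.7 and 134.7 ± 46.4 CPM (2.59). Prkx, a PKA-like kinase that type I regulatory subunits also bind, was detected in 4 type 1 neurons and no type 2 neuron (73.5 ± 67.1 and 0.112 ± 0.118 CPM, -4.89). Of 12 measured A-kinase anchoring proteins, which hold PKA at membranes and organelles, 1 passed in each direction (median -0.44). Akap8, a nuclear anchor, was at 112 ± 54.6 and 26.1 ± 22.7 CPM (-2.73), while Akap9 and Akap11 had -1.23 and 1.21. Of 8 measured phosphatase genes acting on PKA substrates, 0 passed (median -0.09), with Ppp1r2 at -1.62, Ppp1r1a at 1.42 and Ppp1cc at -1.25.

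Among 9 other measured phosphodiesterases, 3 were higher by 2 or more in type 2 and 1 in type 1 (median 0.44), against 13.5% and 7.78% of all genes. Pde9a, which is specific for cGMP, was at 118 ± 129 and 15.5 ± 34.2 CPM (-3.79). Pde7a, specific for cAMP, was at 0 to 0.0956 CPM in type 1 and 0.0828 to 35.3 CPM in type 2 (3.11), and Pde8b, also specific for cAMP, had a difference of 2.03. Of 6 other measured cAMP effectors, 0 passed in type 2 and 1 in type 1 (median -0.41): Cngb1, a subunit of cyclic nucleotide-gated channels, at -2.89. Rapgef4, which encodes the exchange factor Epac2, was at 73.1 ± 80.1 and 69.5 ± 90.4 CPM (-0.46).

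Of 12 measured genes of the wider CREB family and its coactivators, 1 was higher by 2 or more in type 2 and 0 in type 1 (median 0.58). That was Creb3, whose product is tethered to the endoplasmic reticulum (102 ± 109 and 237 ± 172 CPM, 2.46), followed by Crebl2 (1.67) and Crtc3 (1.64). Of 15 measured genes often named as CREB targets, 1 was higher by 2 or more in type 2 and 3 in type 1 (median 0.04), again beside 13.5% and 7.78% of all genes. Bdnf, a neurotrophin, passed detection in 3 neurons of type 1 and 1 of type 2 (84.8 ± 88.3 and 6.64 ± 14.7 CPM, -3.22), and the clock gene Per2 in 3 and 1 (-2.77), while Ppargc1a, a coactivator of mitochondrial genes, was detected in 2 and 3 (2.40).

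The call rested on few neurons for some members. Among the 6 libraries above 20000000 counts (2 of type 1 and 4 of type 2) all 10 members past the threshold kept their sign, as they did without 6-2, 9-2 and 9-4. Among the 4 below (3 of type 1, and 6-2 alone for type 2) 7 of 10 kept it, and among the 3 neurons whose name begins with 9, 9 of 10. Adcy1, Adcy2, Pde1a, Pde4a, Gnai3, Crem and Gng5 were past 2 with each neuron left out in turn, Gna12 and Gnb5 in 8 of 10 cases and Adcy3 in 3.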

How the data were processed

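The deposited values are whole-number read counts per gene for each of 10 single neurons, with no normalization, per the file headers. Per the submitters' processing notes, the authors used cutadapt 1.13, STAR, HTSeq 0.6.1p1 and DESeq2 with mm10. Strand setting, amplification and annotation release were not given in the sources used here. Totals were 9796799 to 41844825 counts. Firing types were taken from the labels.

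Counts were divided by library totals to give CPM. Lengths and positions came from GENCODE M21 (summed exon union, or the longest transcript). The members and lists were chosen with earlier results of these data known. Values in every neuron are given for members past 2 on the log2 scale, with ranges that do not overlap, or leading their family per kilobase. From each pathway list the 3 largest differences are named, among genes detected in 3 or more neurons of either type. With 1 neuron per library and no animal named, no test was made. The 45 pairs of libraries had chi-square values per degree of freedom of at least 634, far above sampling noise, so none was a copy. Alternatives were pseudocounts of 10 and 0.1, TMM (edgeR 4.0.16) and median-of-ratios scaling, totals without the 50 most abundant genes, thinning, other filters, medians, subsets of neurons and leaving out each neuron. Python 3.11.15 and scipy 1.17.1 were used, and the procedure was tested on simulated data.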

Additional observations from a re-analysis of the deposited data

Results flagged for a closer look

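In 84 groups, each the 5 neurons of 1 type for 1 member with a mean of at least 1 CPM, 1 neuron stood far from the other 4 in 16 (12 in type 1, 4 in type 2), by Dixon's ratio of the gap to the whole range. Chance alone gives about 1 in 20 such groups when values are normally distributed. CPM of single neurons are far from that, since 80.7% of all genes with a mean of 20 to 200 CPM were under 1 CPM in some neuron. No share over all genes is given here, so the 16 cannot be read as particular to these members. In type 1 the neurons far above the others were 4-3 for Gnai3 (136 CPM, the others at most 0.478), 1-1 for Adcy3 (155 CPM, the others at most 0.223), 8-2 for Pde1a (145 CPM, the others at most 0.223), 8-2 for Adcy8 (79.4 CPM, the others at most 0.255) and 1-2 for Gnai2 (638 CPM, the others 183 to 248). Adcy1 in 9-1 was also apart, at 0.287 CPM with the others at most 0.0717, although both lie below detection. In type 1 the neurons far below the others were 9-1 for Gnal (0.127 CPM, the others 91.0 to 114), 4-3 for Gna11 (5.31 CPM, the others 89.5 to 171) and 1-1 for Gnaz (44.1 CPM, the others 280.1 to 409.7). Neuron 1-1 was also at 0 for Gnb4 (the others 94.2 to 273), at 0 for Pde1b (48.8 to 181) and at 0 for Crem (45.1 to 132). In type 2, 10-3 was below the others for Gnaq (0.138 CPM, the others 14.98 to 24.3) and Prkar1a (981 CPM, the others 2044 to 2329). Neuron 9-4 was above the others for Adcy8 (27.2 CPM, the others at most 0.0351), and 9-2 for Adcy9 (0.0351 CPM, the others 0), the latter below detection.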

How the results depend on the processing

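The counts of members past 2, 8 higher in type 2 and 2 higher in type 1, were the same with TMM or median-of-ratios scaling, totals without the 50 most abundant genes and thinned counts. TMM moved the median of all genes from 0.24 to 0.39 and that of the members from 0.10 to 0.31. With a pseudocount of 10 the counts were 4 and 0 (2.31% and 1.59% of all genes) and the median of the members was -0.10. A pseudocount of 0.1 gave 10 and 3 (24.4% and 12.5% of all genes). Requiring a mean of at least 10 CPM gave 7 and 1 of 38 members (18.4% and 2.63%, against 16.1% and 9.53% of all genes). Medians over neurons gave 11 and 3 (16.8% and 10.4% of all genes). Among libraries above 20000000 counts 10 members were higher in type 2 and 8 in type 1 (13.9% and 16.4% of all genes), with a median of 0.44. Among those below, 10 and 7 were (29.4% and 13.5% of all genes). Among neurons whose name begins with 9 the counts were 14 and 5 (28.7% and 16.97% of all genes) and the median 0.55. Without 6-2, 9-2 and 9-4 they were 9 and 4 (16.95% and 14.97% of all genes) and the median -0.05. Leaving out each neuron in turn gave 6 to 9 of 42 members higher in type 2, where 13.1% to 17.0% of all genes were. It gave 2 to 5 members higher in type 1, where 8.09% to 9.80% of all genes were, and medians of -0.15 to 0.49. Without 1-1, 9-1, 10-3 or 9-4 the count higher in type 1 was 4 and without 9-2 it was 5; the median was 0.36 without 1-2, 0.49 without 8-2 and -0.15 without 9-1. Of the 10 members past 2, 3 changed sign in some setting: Adcy3 was -2.43 and Crem 1.14 among libraries below 20000000 counts, and Adcy2 was -0.52 among neurons whose name begins with 9. The cause of these changes was not tested beyond the smaller number of neurons. Of 736 other settings of the 32 members not past 2, 710 moved the difference by less than 1 SD and 26 by more, and 24 of these 32 changed sign in at least 1 setting. No paired analysis was possible because the types share no whole neuron number, and only 1 first number, 9, which does not link single neurons. Depth sets a floor of 0.0717 CPM (8-2) to 0.306 CPM (4-3), under which a level could not be told from 0.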

Other observations

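The 44 members together amounted to 9767 to 11582 CPM in type 1 neurons and 10644 to 17683 CPM in type 2 neurons. The highest sums were in 10-1, 9-4 and 10-3 (17683, 15229 and 13913 CPM), and 6-2 alone among type 2 neurons lay within the type 1 range. Gnas accounted for 8892, 5454 and 6657 CPM of those 3 sums.

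Some members that were not past 2 over all neurons differed in direction between the depth sets. Creb1 had a difference of -3.27 among libraries above 20000000 counts and 4.07 among those below, Gnaq -2.89 and 2.45, Pde1b -3.01 and 0.67, Prkar2a 3.04 and -1.78, and Pde4b 2.15 and -0.52. The set below holds 6-2 as its single type 2 neuron.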
